A study of Mus musculus with 8 samples.

Results

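The 6 genes described here encode the peroxisome proliferator-activated receptors (Ppara, Ppard and Pparg) and the retinoid X receptors (Rxra, Rxrb and Rxrg). Their chromatin was read from 1 list of ATAC-seq summits, the positions at which accessible regions peak. Of 32173 summits in that list, 83 lay between the ends of 1 of these genes or up to 50 kb from the transcription start site (TSS) of 1 of their curated RefSeq mRNAs. The same count was made for 21000 genes with a curated mRNA, which serve as the background throughout.

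PPARs are nuclear receptors that bind fatty acids and their derivatives, and they act on DNA as heterodimers with an RXR, whose own ligands are retinoids. The pair recognises a direct repeat of the half-site AGGTCA with a spacer of a single base, called DR1. In adipose tissue PPARγ is the receptor required for adipocyte formation, and its gene gives rise to the isoform PPARγ2, enriched in fat, from a promoter of its own. PPARα drives genes of fatty acid oxidation and is abundant in brown fat, while PPARδ is expressed in most tissues.

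The ATAC-seq libraries came from brown adipose tissue (BAT) nuclei of 2 WT mice and 2 Dot1L-BKO mice. Dot1L-BKO mice carry floxed Dot1l, the gene of the histone H3 lysine 79 methyltransferase, and a Cre driven by the Ucp1 promoter, so the deletion is directed to Ucp1-expressing cells and other cells of the tissue keep the gene. The mice were 12 weeks old and were kept at 4°C for 4 h before the tissue was taken. The 4 libraries share a single list, named as WT against Dot1L-BKO, with 1 position and 1 score per summit. No value per mouse, no read depth and no replicate error can be taken from it, so the 2 genotypes were not compared, the deletion was not checked at Dot1l, and all values below are descriptions without a test. By the study's methods, peaks were identified in each sample and joined into a union set of regions, but how the deposited list relates to that set is not stated. Whether the Dot1L-BKO reads served as the control of the peak call is not given in the sources used here. If they did, a score would rank WT signal over Dot1L-BKO signal and not accessibility alone.

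The score is the −log10 q of the peak call and ran from 1.31 to 13426 over the list, with a median of 5.001. Scores were coarse: 95.3% of summits shared their exact score with another summit, and so did all 83 summits of the receptor genes. A rank is therefore that of a group of equal scores. Beside 45.2% of all 21000 genes, 9 of 10 brown adipocyte marker genes (all but Adrb3) carried a summit at most 1 kb from a start site, against 1 of 6 endothelial, 1 of 6 macrophage and leukocyte, 0 of 6 skeletal muscle, 0 of 6 neuron and 2 of 6 preadipocyte and mural markers. In bulk tissue, fewer cells of a type and a less open region in each cell cannot be told apart.

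The sequences on which the description turns are printed here in mm10, from the RefSeq genome, named by gene and by distance in bp from the nearest TSS of that gene (negative is upstream). All 6 genes lie on the plus strand. The first set is the summit or promoter stretch of each receptor gene, trimmed where it ran into an exon. Capitals mark GGGCGG, the GC box bound by SP and KLF factors.
Ppara −32, chr15:85735472-85735563, plus strand: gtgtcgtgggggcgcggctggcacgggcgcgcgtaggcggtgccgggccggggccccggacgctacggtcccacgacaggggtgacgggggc
Ppara −10687, chr15:85724817-85724937, plus strand: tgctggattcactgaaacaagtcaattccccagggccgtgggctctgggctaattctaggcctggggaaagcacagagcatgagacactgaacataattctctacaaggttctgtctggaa
Ppara −14828, chr15:85720676-85720796, plus strand: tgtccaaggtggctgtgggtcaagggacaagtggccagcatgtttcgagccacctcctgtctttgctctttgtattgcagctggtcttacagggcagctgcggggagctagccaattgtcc
Ppara −17506, chr15:85717998-85718118, plus strand: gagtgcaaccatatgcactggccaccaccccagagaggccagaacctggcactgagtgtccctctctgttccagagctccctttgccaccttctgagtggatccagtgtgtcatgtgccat
Ppard +153, chr17:28232865-28232967, plus strand: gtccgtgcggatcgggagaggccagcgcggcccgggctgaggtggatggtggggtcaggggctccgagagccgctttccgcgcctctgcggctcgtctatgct
Ppard +3428, chr17:28236122-28236242, plus strand: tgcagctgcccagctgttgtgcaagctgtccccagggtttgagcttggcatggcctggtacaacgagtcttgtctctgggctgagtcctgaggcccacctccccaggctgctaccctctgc
Pparg −84, chr6:115362205-115362325, plus strand: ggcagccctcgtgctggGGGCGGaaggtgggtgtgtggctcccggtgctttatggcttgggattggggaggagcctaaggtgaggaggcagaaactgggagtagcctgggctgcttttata
Pparg −160, chr6:115421846-115421966, plus strand: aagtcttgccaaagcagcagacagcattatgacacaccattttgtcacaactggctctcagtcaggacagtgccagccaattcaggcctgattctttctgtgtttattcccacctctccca
Pparg +2526, chr6:115424532-115424652, plus strand: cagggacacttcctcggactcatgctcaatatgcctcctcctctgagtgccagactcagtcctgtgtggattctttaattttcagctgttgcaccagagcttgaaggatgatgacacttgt
Rxra −587, chr2:27676554-27676674, plus strand: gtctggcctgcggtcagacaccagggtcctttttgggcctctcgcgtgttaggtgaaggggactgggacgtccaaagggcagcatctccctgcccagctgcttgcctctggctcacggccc
Rxra +3855, chr2:27714378-27714498, plus strand: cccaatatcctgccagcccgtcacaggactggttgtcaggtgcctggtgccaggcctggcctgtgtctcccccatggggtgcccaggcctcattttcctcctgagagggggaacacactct
Rxrb, the bases between the Slc39a7 and Rxrb start sites, chr17:34031691-34031811, plus strand: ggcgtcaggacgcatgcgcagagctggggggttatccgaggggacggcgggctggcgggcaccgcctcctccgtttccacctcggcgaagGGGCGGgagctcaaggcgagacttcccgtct
Rxrg, the bases before the second promoter, chr1:167618144-167618264, plus strand: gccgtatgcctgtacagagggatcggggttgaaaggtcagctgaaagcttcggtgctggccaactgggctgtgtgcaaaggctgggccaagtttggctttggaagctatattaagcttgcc
For Rxrb and Rxrg the stretch before the TSS is shown because the summit itself was in an exon. Within 100 bp of the summit, the number of CpG dinucleotides was 33 at Ppara −32, 26 at Ppard +153, 25 at Rxrb −162, 10 at Rxra −587, 8 at Pparg −84, 7 at Rxrg +24 and 2 at Pparg −160.

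The second set holds every DR1 match within 100 bp of a summit of the receptor genes, searched as AGGTCANAGGTCA on both strands with at most 2 mismatches over its 12 defined letters. Capitals mark the match.
Ppara −33939, chr15:85701623-85701683, plus strand: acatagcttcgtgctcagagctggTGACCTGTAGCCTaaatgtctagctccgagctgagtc
Ppara −26282, chr15:85709180-85709240, plus strand: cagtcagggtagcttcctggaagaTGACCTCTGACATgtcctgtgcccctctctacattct
Ppara −24786, chr15:85710693-85710753, plus strand: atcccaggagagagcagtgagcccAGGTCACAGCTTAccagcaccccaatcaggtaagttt
Ppara +12110, chr15:85747906-85747966, plus strand: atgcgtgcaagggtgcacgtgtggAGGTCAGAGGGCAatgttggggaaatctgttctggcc
Rxrb +1061, chr17:34033328-34033388, plus strand: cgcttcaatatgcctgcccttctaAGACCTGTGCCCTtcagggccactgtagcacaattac
None of the 5 was a perfect repeat. Counted from 1 at the 5′ end of the repeat, with the letter of the repeat before the position and the letter found after it, the match at Ppara −26282 differed by G2T on the minus strand and that at Ppara +12110 by T11G on the plus strand. The other 3 differed at 2 positions each, by T4C and C5T at Ppara −33939, by G10C and C12T at Ppara −24786, and by T4G and A13T at Rxrb +1061. The match at Ppara +12110 lay wholly in soft-masked repeat sequence and the other 4 in none.

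A promoter summit, lying within 1 kb of a start site, was present at all 6 receptor genes, whereas 45.2% of all 21000 genes did. By promoter (start sites of a gene within 500 bp joined), 8 of 12 receptor promoters had one, against 42.1% of 24064 promoters. Both Rxrb promoters were counted from the same summit, which lay nearest to the start site of the neighbouring gene Slc39a7. Any summit in the whole span was found for all 6 genes and for 72.5% of all genes. The 6 genes differed widely in what surrounded the promoter: Ppara had 29 summits, Rxra and Rxrb 17 each, Ppard 16, Pparg 3 and Rxrg 1, where the median gene had 2, the upper quartile was 5 and the highest count was 69. A span covers the gene body, so a long gene has more room, and the count per 100 kb is given beside it for each gene.

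**Figure D1:**
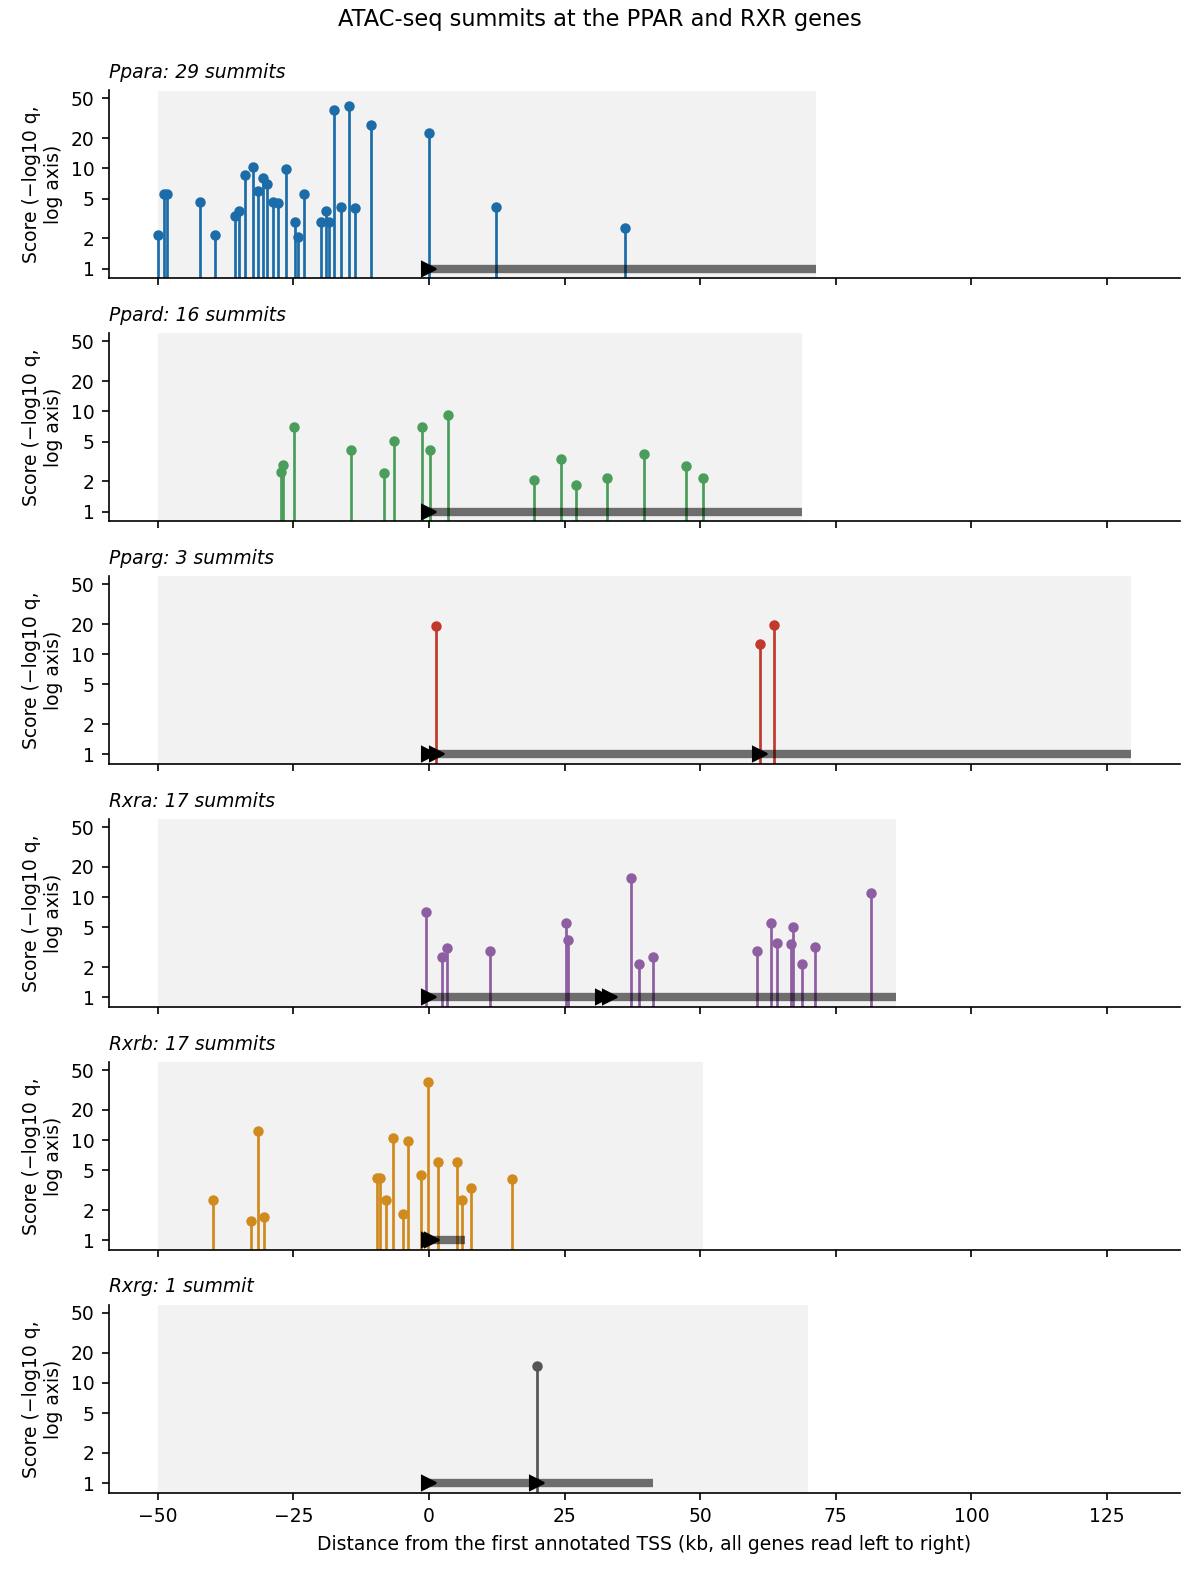
Each panel plots the score of every summit (−log10 q, log axis) against its distance from the first annotated TSS (kb) for 1 receptor gene. The grey field is the span searched, the dark bar the gene body and the arrowheads the annotated promoters. Ppara has most of its 29 summits upstream of the gene, Rxra has 16 of 17 in the gene body, and Pparg and Rxrg have 3 and 1.

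**Figure D2:**
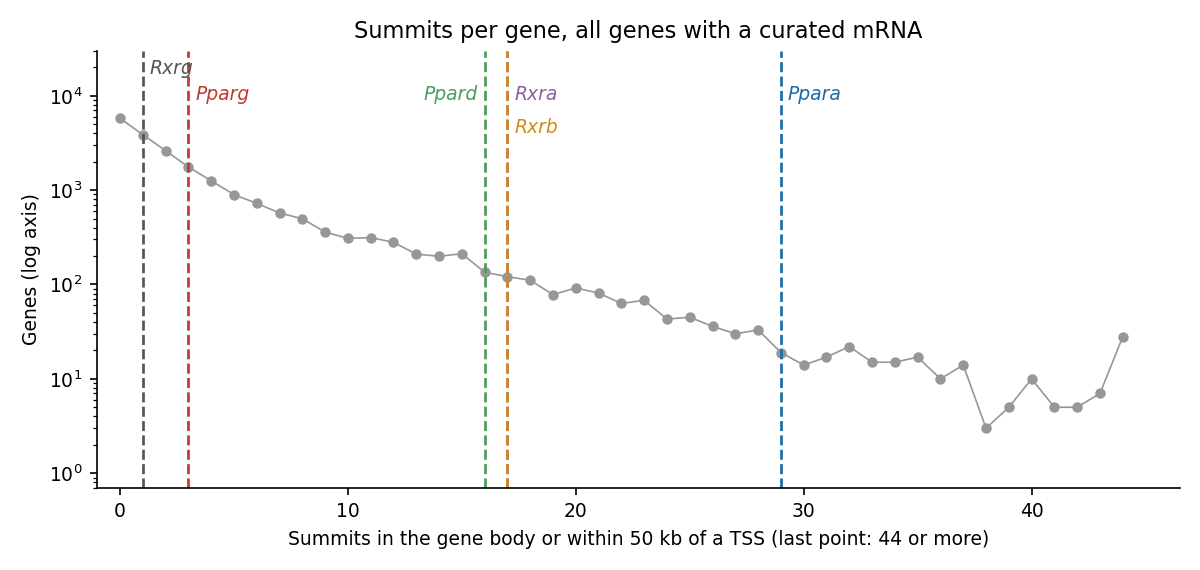
Number of genes (log axis) by the number of summits per span (the gene and 50 kb on each side of its start sites), for 21000 genes (grey points). Dashed lines mark the 6 receptor genes, from Rxrg with 1 summit to Ppara with 29.

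Pparg, the gene of the adipogenic receptor, lies at chr6:115360951-115490401 and has 3 annotated promoters, which are taken apart here. The first serves variants 1 and 3, with start sites at 115360951 and 115361144, and it had no summit within 1 kb. The summit nearest to it lay 1121 bp downstream of the later of these sites, in the intron that follows the first exon of both variants. The second promoter, that of variant 4, starts at 115362349, only 1205 bp farther on, and the same summit lay 84 bp before it with a score of 19.1 (rank 3357 of 32173). It is 23 bp past the start of a predicted RefSeq transcript, so its assignment to a curated promoter rests on the annotation chosen. These 3 variants encode the shorter isoform, PPARγ1.

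The third promoter is that of variant 2, which encodes PPARγ2, and starts at 115422066, 59717 bp past the second. Its summit lay at −160 with a score of 12.8 (rank 5618). The last summit lay 2526 bp past this start site, in the first intron of the variant, and had the highest score at the gene, 19.4 (rank 3135), at the 95.3 percentile of all summits farther than 1 kb from a TSS. The summits of both promoters stood at the 77.8 and 65.5 percentile of promoter summits, in the order of their position. So the promoter of the fat-enriched isoform and the intron after it held 2 of the 3 summits at this gene.

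**Figure D3:**
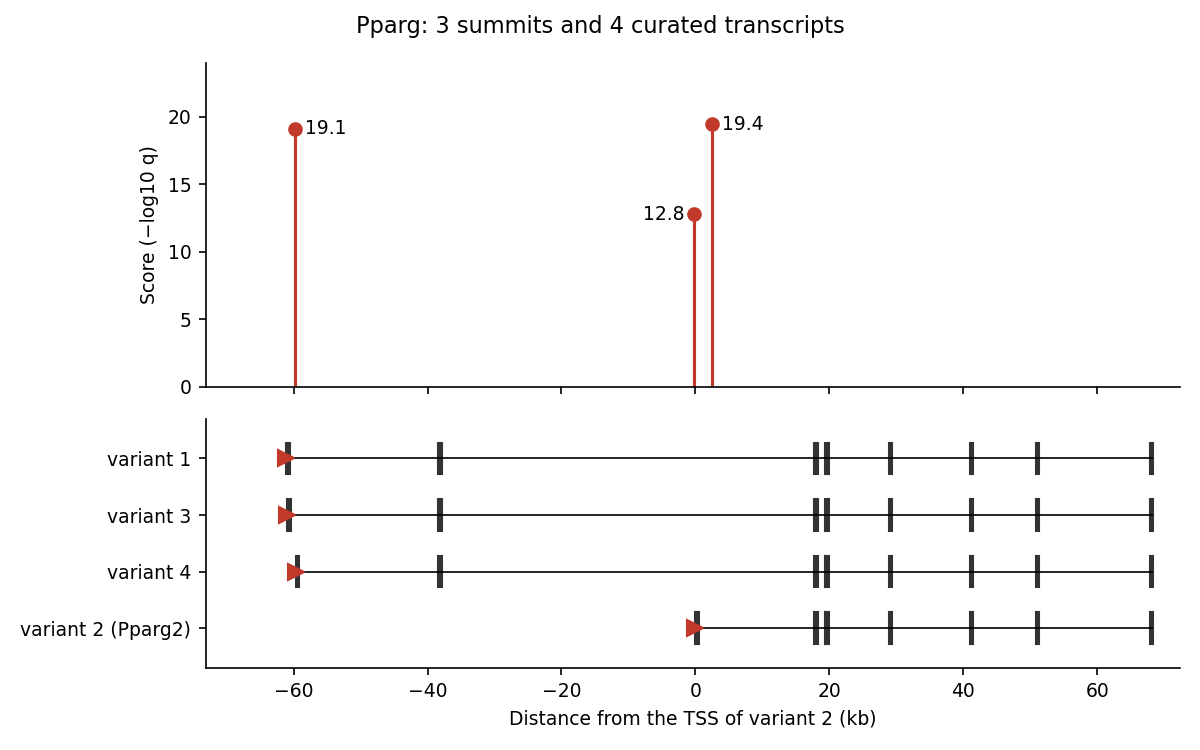
Scores of the 3 Pparg summits (upper panel, −log10 q) and the 4 curated transcripts (lower panel, boxes are exons, arrowheads start sites) by distance from the TSS of variant 2 (kb). The summit with a score of 19.1, lies at the start of variant 4, and those with scores of 12.8 and 19.4 lie on either side of the start of variant 2.

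The Pparg2 promoter differed in base composition from the upstream one. Within 100 bp of its summit GC content was 43.3% with 2 CpG, and around the start site of variant 4 the summit had 63.2% GC and 8 CpG, beside medians of 56.2% and 5 over all summits. Outside these 3 summits Pparg had none, neither in the 50 kb before the gene nor in the 65.8 kb from the intronic summit to the end of the gene. Its density of 1.67 per 100 kb matched the median of all genes (1.66, percentile 50.1). All 3 Pparg summits had a score of at least 10, a mark reached by 14 of the 83 summits of the receptor genes (16.9%) and 23.5% of all summits.

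Ppara, the gene of the receptor of fatty acid oxidation (chr15:85735564-85806851), had the most summits of the family. Its promoter, from which both curated variants start within 500 bp of each other, had a summit at −32 with a score of 22.4 (rank 2625), in a stretch with 81.1% GC and 33 CpG within 100 bp. The gene body held just 2 summits, both in the second intron, at +12110 with a score of 4.16 and at +35922 with a score of 2.53. The other 26 lay upstream, from −49910 to −10687 relative to the first TSS.

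This upstream stretch of 39.2 kb had a summit every 1115 bp at the median (473 to 6061 bp). Scores there ran from 2.05 to 41.9 with a median of 4.61, so most were modest, and 4 reached 10. The highest were 41.9 at −14828 (rank 819), 38.4 at −17506 (rank 967) and 26.9 at −10687 (rank 1890), all 3 higher than the promoter summit. The 2 highest stood at the 99.0 and 98.8 percentile of summits farther than 1 kb from a TSS. The fourth, at −32538, had a score of 10.4.

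No curated protein-coding gene lies in that stretch. RefSeq places 5 noncoding genes there, among them Lncppara, a long noncoding RNA, the microRNA genes Mirlet7c-2 and Mirlet7b of the let-7 family, and the long noncoding RNAs Gm34622 and Gm46529. Of the 26 summits, 4 lay inside Lncppara, 3 inside Gm34622 and 1 inside Gm46529, and the remaining 18 lay outside these genes. The nearest summit was 162 bp from the start of Mirlet7c-2, 280 bp from that of Lncppara, 442 bp from that of Mirlet7b, 509 bp from that of Gm34622 and 1027 bp from that of Gm46529. Because these genes have no curated mRNA, each of the 29 summits had Ppara as its nearest start site, and what share belongs to which transcript was not tested.

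**Figure D4:**
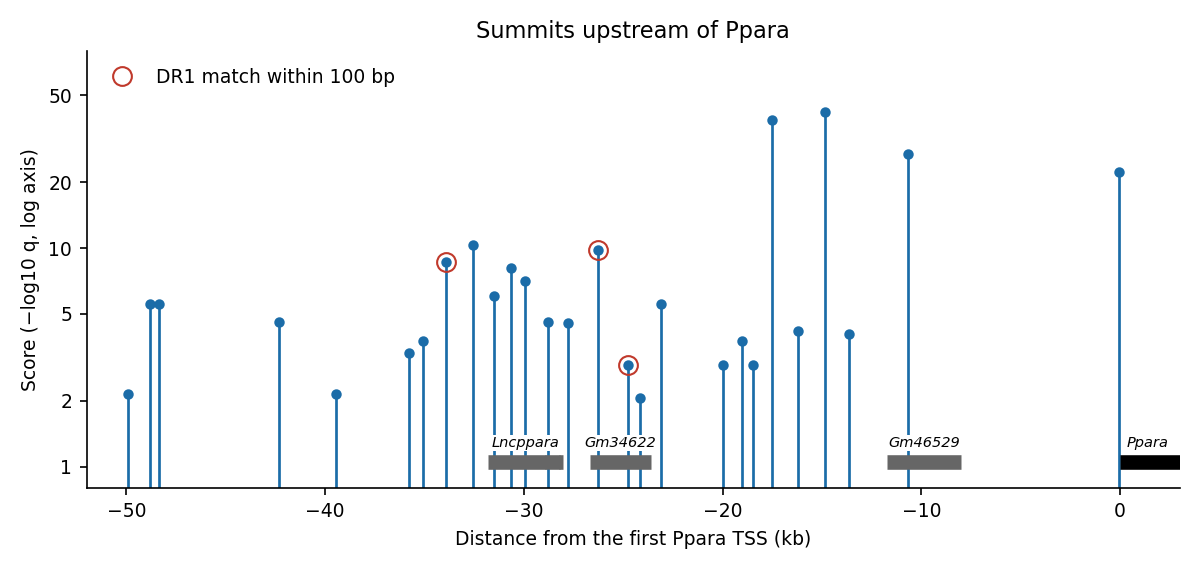
Score (−log10 q, log axis) of the summits before Ppara by distance from its first TSS (kb). Grey bars are long noncoding RNA genes (both let-7 genes lie inside Lncppara), and red circles mark summits with a DR1 match within 100 bp. The summits with scores of 38.4 and 41.9 stand between Gm34622 and Gm46529 and that with 26.9 stands within Gm46529, and none of the 3 is circled.

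Counted the same way, 8 of 21000 genes (0.0381%), Ppara included, had as many as 26 summits between 1 and 50 kb upstream. The median gene had 0 there and the highest count was 28. This interval was not among the planned counts and was taken because the Ppara summits lay in it. The share is therefore no measure of how unusual Ppara is. Rxrb had 11 and Ppard 7 in that interval, and Pparg, Rxra and Rxrg had 0. Over the whole span Ppara reached 23.9 summits per 100 kb, the 98.3 percentile of all genes. Within 10 kb of a TSS or in the gene body, however, only 3 of its summits lay.

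Ppard, the gene of the widely expressed PPARδ (chr17:28232754-28301469), has a single annotated promoter and had the weakest promoter summit of the 6 genes. That summit lay at +153, in the first intron, with a score of 4.16 (rank 17875, the 22.6 percentile of promoter summits). The 2 summits nearest to it were stronger, at −1271 with a score of 7.05 and at +3428 with a score of 9.21, the highest at the gene. None of its 16 summits reached 10. Of the 16, 9 lay in the Ppard gene body. By nearest start site 10 were assigned to Ppard, 4 to Def6 and 2 to Fance, though these 2 lay in the second intron of Ppard. The summit at −24938 (score 7.05) lay 38 bp past the Def6 start site. The density was 13.5 per 100 kb, the 93.0 percentile.

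Rxra encodes RXRα, the retinoid X receptor that partners PPARs in many tissues. The gene (chr2:27677201-27763319) has 3 annotated promoters. The first, that of variant 1, had a summit at −587 with a score of 7.05 (rank 10792), which lay 169 bp past the start of a predicted transcript. No summit lay within 1 kb of the second (variant 2, 27709292) or the third (variant 3, 27710583). The summit nearest to both was the highest at the gene, 5146 and 3855 bp downstream, with a score of 15.4 (rank 4427).

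In contrast to Ppara, 16 of the 17 Rxra summits lay in the gene body, all of them in introns, and none lay in the 49.4 kb before the promoter summit. Besides the summit at 15.4, 1 more reached 10, in the ninth intron, with a score of 10.9. The other 15 had scores from 2.15 to 7.05. All 17 had Rxra as the nearest start site, and the density of 12.5 per 100 kb was at the 92.0 percentile.

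Rxrb encodes RXRβ and is a short gene, 6592 bp (chr17:34031812-34038403), among genes of the major histocompatibility complex. The highest promoter score of the family was found here, 37.6 at −162 of the first promoter (rank 1013, the 92.7 percentile of promoter summits). The same summit was the nearest to the second promoter, at −700. Slc39a7, which encodes a zinc transporter, starts in the opposite direction, with 121 bp between both start sites, and the summit lay 40 bp inside its first exon. The score therefore belongs to a shared promoter region, and its parts for the 2 genes cannot be told apart.

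The other summits in the Rxrb span were mostly those of its neighbours. By nearest start site only 1 of 17 was assigned to Rxrb, at +1061 in the second intron with a score of 6.02. Those that followed the promoter summit in score were 12.4, at 81 bp past the start of H2-K1, and 10.4, at −441 from that of Ring1. Of the rest, H2-Ke6 and Col11a2 were the nearest genes of 2 and 4 summits. The density of 16.9 per 100 kb (the 95.5 percentile) is that of the whole region.

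Rxrg, the gene of RXRγ (chr1:167598362-167639623), had a single summit in 119.9 kb, a density of 0.834 per 100 kb (the 33.0 percentile). It lay at +24 of the second promoter, that of variant 2, with a score of 14.7 (rank 4655), in exon 1 of that variant and in the second intron of variant 1. No summit lay at the first promoter, 19903 bp upstream. Like Pparg, then, Rxrg had few summits, all of them with a score of at least 10, and its promoter summit stood at the 70.6 percentile of promoter summits.

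Taken by score, the promoter summits were ordered Rxrb (37.6), Ppara (22.4), Pparg at variant 4 (19.1), Rxrg (14.7), Pparg at variant 2, the PPARγ2 promoter (12.8), Rxra (7.05) and Ppard (4.16). With 1 list for all libraries, the spread between mice is unknown, and neighbours in this order cannot be said to differ. The scores of Rxra and Ppard were shared by 504 and 1942 summits in the list. The order by number was another one, with Ppara on top and Pparg and Rxrg last.

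Among 49 nuclear receptor genes, a list added after the data had been seen, 24 had a promoter summit. These were the 6 PPAR and RXR genes and 18 of the other 43 (41.9%, close to the 45.2% of all genes). By the score of the best promoter summit Rxrb was 5th, Ppara 9th, Pparg 10th, Rxrg 13th, Rxra 20th and Ppard last of the 24. Their median best promoter score was 16.9, against 14.7 for the 18 others. Rxrb enters the ranking and this median with the score of the region it shares with Slc39a7. By number of summits Ppara was 2nd, after Nr4a1 with 41.

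**Figure D5:**
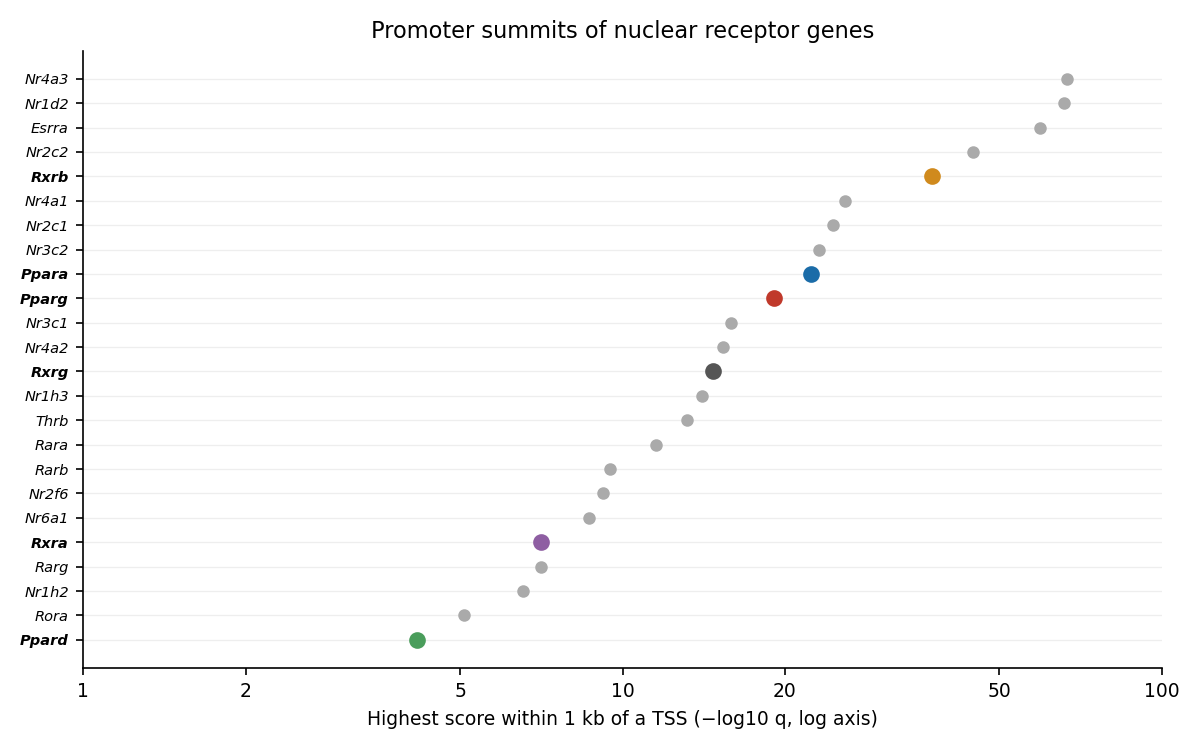
Highest score within 1 kb of a TSS (−log10 q, log axis) for the 24 nuclear receptor genes that had a promoter summit, with the PPAR and RXR genes in bold and colour. The 6 genes are spread from near the top (Rxrb, 37.6, in the region shared with Slc39a7) to the bottom (Ppard, 4.16) of the order.

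Over the 83 summits pooled, scores were lower and positions farther from promoters than over the list, as a description without a test. Their median score was 4.16 against 5.001 for all. The genes did not share 1 pattern: 26 of the 83 lay in the stretch before Ppara, all of them intergenic. All summits of Pparg and Rxrg had scores of at least 10. The nearest start site was that of another gene for 22 summits. Of the 83, 15 (18.1%) lay within 1 kb of a TSS of any gene, 9 of them within 1 kb of a start site outside the family (the Rxrb and Slc39a7 summit included), against 32.2% of all summits. By position 39 (47.0%) were intronic, 12 (14.5%) exonic and 32 (38.6%) intergenic, and over the list these shares were 40.6%, 16.6% and 42.8%. GC content within 100 bp had a median of 55.7% (56.2% over all). Only 1 of the 83 (1.20%) was mostly repeat-masked, against 9.98% of all.

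A match to the DR1 repeat with at most 2 mismatches was found near 5 of 83 summits (6.02%), against 4.07% of all 32173. The matches were at 4 summits of Ppara and 1 of Rxrb, and there was none at Ppard, Pparg, Rxra or Rxrg. Of the 15 summits within 1 kb of a TSS none had a match, where 2.34% of such summits in the list did, and none of the 14 with a score of at least 10 had one, where 4.10% did. The scores of the 5 were 2.92, 4.16, 6.02, 8.65 and 9.78, and 3 lay in the dense stretch before Ppara, at −33939, −26282 and −24786. No test was run on these small counts.

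Single half-sites AGGTCA lay near 16 of the 83 summits (19.3%, against 15.2% of all). Of these, 9 were at Ppara and 1 at Pparg, at the summit before variant 4. Each of the intact half-sites in the DR1 matches counts here as well. The pattern of C/EBP factors, which act before PPARγ in adipocyte formation (TTGCGCAA, at most 1 mismatch), was found near 4 (4.82%, against 7.69%), among them the intronic Pparg summit at +2526. That of the early B cell factors, EBF (TCCC and GGGA with 2 bases between), was found near 1 (1.20%, against 1.33%), and that of NFI, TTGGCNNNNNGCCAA with at most 1 mismatch, near 0 (0.845% of all). The GC box GGGCGG was near 9 (10.8%, against 20.6%), and within 1 kb of a TSS near 6 of 15 (45.0% of such summits in the list), Ppara −32, Pparg −84 and the Rxrb and Slc39a7 promoter included. All patterns were read on both strands within 100 bp, and a match shows letters, not binding.

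The genes around the receptors were read from lists of their partners, cofactors, ligand suppliers, targets and regulators. Of 13 other nuclear receptors that pair with RXR, 8 (61.5%) had a promoter summit, beside 45.2% of all genes, and 5 had one with a score of at least 10, which 23.5% of all genes had. The highest scores were at Nr4a1 (25.9) and Nr4a2 (15.4), orphan receptors induced by acute stimuli. The 5 without were Thra and Vdr, the thyroid hormone receptor α and vitamin D receptor genes, and Nr1h4, Nr1i2 and Nr1i3, which encode the receptors for bile acids and foreign compounds.

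Coactivators had a promoter summit in 9 of 11 genes (81.8%, beside 45.2% of all genes), with the highest scores at Ppargc1a (20.8), the coactivator of mitochondrial biogenesis, and Ncoa2 (19.4), and none at Ncoa6 and Crebbp. Corepressors had one in 6 of 8, with the highest score at Nrip1 (16.7), the gene of RIP140, and none at Tbl1x and Tbl1xr1. At a score of at least 10, 2 coactivator genes and 1 corepressor gene had one, beside 23.5% of all genes. The median best promoter scores of these lists were 8.65 and 7.85, below the 10.7 of all genes with a promoter summit and the 16.9 of the receptor genes themselves.

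Of 12 genes that supply or carry fatty acids, the ligands of PPARs, 9 had a promoter summit, beside 45.2% of all genes, and 7 had one with a score of at least 10, beside 23.5%. Acsl1, which activates long-chain fatty acids, and Lipe, the hormone-sensitive lipase, had scores of 90.5 and 84.8. Those without were Fabp1, Fabp2 and Fabp7, binding proteins of liver, intestine and brain. Of 12 genes of retinoid handling, 2 had one, Dhrs3 (30.9) and Rdh10 (4.16), which act in the conversion between retinol and retinal. This share of 16.7% stands beside the same 45.2%.

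Textbook PPAR target genes had a promoter summit in 21 of 25 (84.0%, beside 45.2% of all genes), with a median best score of 25.4 (10.7 over all genes with one). In 17 of them the score was at least 10, as in 23.5% of all genes. The highest was 121 at Acadm, the medium-chain acyl-CoA dehydrogenase. Those without included Plin4, a lipid droplet protein, and Cyp4a10 and Cyp4a14, PPARα targets best known in liver. Of 17 regulators that act on Pparg in adipocytes 15 (88.2%) had one, 9 of them with a score of at least 10, led by Cebpb (41.0) and Cebpa (39.6), and Zfp423 and Gata3 had none.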

How the data were processed

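BAT nuclei of 4 cold-exposed mice were profiled by ATAC-seq. By the study's methods, the authors aligned reads with BWA to mm10 and called peaks with MACS2 in its ATAC mode at q 0.05 and a fold enrichment of 2. The submitters' processing notes also name MACS2 2.1.1, cutadapt 1.2.1, bcl2fastq 2.2 and CASAVA. The read shift used in that mode, the removal of duplicates and the handling of mitochondrial reads, each of which can move a summit or its score, are not given in the sources used here. The deposited list gives 1 score per summit, as −log10 q, with no value per library, and which libraries were signal or control in that call is not stated. Depth is unknown. The RNA-seq libraries were not analysed here.

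Start sites came from curated RefSeq mRNAs of GRCm38.p6 (mm10), and those of a gene within 500 bp were joined as 1 promoter. Promoter summits lay within 1 kb. Percentiles are mid-ranks. Python 3.11.15, numpy 2.4.6 and pandas 2.3.3 were used, and the counting and motif steps were tested on simulated data. The rule named every promoter and Pparg summit, the 3 highest summits of the other receptor genes, and in each list the 2 highest promoter scores and, where 5 or fewer, the genes without one. Some genes that this rule names are not reported here. Members and lists were chosen with earlier results of these data known. Alternatives changed the score minimum, span, promoter window, annotation and motif settings.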

Additional observations from a re-analysis of the deposited data

How the results depend on the processing

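The list has no value per library, so nothing could be recomputed without a replicate, depth sets no stated limit, and a score cannot be split by genotype. No paired analysis was possible because the results come from no test and the list, though named for all 4 libraries, gives no value for any of them. The 83 summits became 33 with a score of at least 5 and 14 with at least 10, 48 with flanks of 10 kb around the start sites in place of 50 kb, 132 with flanks of 100 kb (Pparg then 9, Rxrb 38) and 34 in the gene body only (Ppara then 2). Of the 70 genes with a promoter summit over the 7 lists (a gene counts in each list that holds it), 42 had a score of at least 10 (coactivators 9 to 2, corepressors 6 to 1). The 5 DR1 matches became 1 within 50 bp, 9 within 250 bp, 2 with at most 1 mismatch, 24 with at most 3, and 0 at a score of at least 10, where all summits had 2.04%, 8.83%, 0.684%, 21.9% and 4.10%. The intronic share of 47.0% (95% Wilson interval 36.6 to 57.6%, counting error only) was 35.7% of the 14 at a score of at least 10. The interval treats the 83 summits as independent, but they cluster in 6 genes, so it does not cover the spread between genes. Over the whole list the intronic share was 40.6% with no score minimum. It was not counted for the list at the higher minimum, so the 35.7% has no background. The receptor genes with a promoter summit numbered 6 (45.2% of all genes), and 4 at a score of at least 10 (23.5% of all genes). There were 5 within 500 bp, 5 from 1 kb upstream to 100 bp downstream and 5 at a score of at least 5. The share of all genes was not counted in those windows or at a score of at least 5, so these counts have no background. Merging summits within 500 bp gave 78 summits, all RefSeq transcripts 85, and assignment by nearest start site 61.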
